A study of Mus musculus with 20 samples.

Results

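Loss of Foxo1 in addition to loss of Hnf4a in mouse beta cells was examined by setting 5 DKO libraries (both genes deleted) against 5 HKO libraries (Hnf4a deleted), 10 of the 20 libraries of the study. Named genes were kept where their FPKM averaged 0.5 or more across all 20 libraries, which left 12455 of 26305. FPKM is the number of fragments per kilobase of gene, scaled to library depth. The other 10 libraries were 5 with Foxo1 alone deleted (IKO) and 5 of wild type (WT). All mice were male, 6 to 8 months old and on chow. Floxed alleles of Foxo1, of Hnf4a or of both were crossed to Cre driven by the rat insulin promoter (RIP-Cre), and beta cells were sorted from islets by a ROSA26-tomato reporter. The sorted cells are thus those in which the insulin promoter had switched on Cre. The labels do not say whether WT mice carried floxed alleles, and no label says that libraries came from separate animals, so the p-values rest on library-to-library spread that may be technical alone.

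Foxo1 is a forkhead transcription factor that insulin keeps out of the nucleus through Akt. In beta cells it is known for moving into the nucleus under metabolic stress, for activating stress and autophagy genes, and for helping to keep beta cell identity. Hnf4a is a nuclear receptor of liver, gut and pancreas whose mutation in humans causes a form of inherited diabetes, and the title of the series describes the Foxo1 and Hnf4a networks as opposed. DKO against HKO asks what loss of Foxo1 adds to loss of Hnf4a.

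The DKO and HKO libraries held 22.8 to 34.2 M reads (M, 1e+06), of which the insulin genes took 14.9 to 22.3% in the 20 libraries. Replicates 1 and 2 of a genotype were close to each other, and so were replicates 4 and 5. On reads recovered from the FPKM values, the chi-square statistic per degree of freedom between such pairs was 1.80 to 4.74 in DKO and HKO, against 27.6 to 95.7 for the other 16 pairs. Differences are therefore also given apart for 3 library sets, namely replicates 1 and 2, replicate 3, and replicates 4 and 5, in that order. Beta cell markers were abundant in every library, with Ins2 at 202100 to 281000 FPKM in DKO and 188600 to 288000 FPKM in HKO. Acinar markers, genes for digestive enzymes that exocrine cells make, set libraries apart. Their summed level over the list was 177 to 1577 FPKM in DKO, 429 to 1669 in HKO, 25.5 to 238 in IKO and 39.3 to 277 in WT. DKO replicate 3 (1577 FPKM) and HKO replicates 4 and 5 (1638 and 1669 FPKM) were highest, so the groups overlapped. Fits without these 3 libraries compare DKO replicates 1, 2, 4 and 5 with HKO replicates 1 to 3. Genotype and library set are then partly mixed. In bulk RNA, fewer cells of a type and less RNA per cell cannot be told apart.

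Foxo1 itself fell in DKO and was the only gene to pass the test. It measured 1.58, 1.59, 1.61, 1.09 and 1.15 FPKM in DKO replicates 1 to 5, against 7.49, 7.83, 6.47, 3.95 and 4.10 FPKM in HKO replicates 1 to 5. Every DKO library lay below every HKO library, and the DKO mean was 23.5% of the HKO mean (1.40 ± 0.263 and 5.97 ± 1.84 FPKM, SD, n = 5 each). The log2 fold change was −1.73 (SE 0.24) with limma's adjusted p = 0.00768, and −1.97, −1.72 and −1.49 in the 3 library sets. A two-sided exact permutation test of 5 against 5 libraries gave p = 0.00794, the smallest it allows. With each set averaged to 1 value, the exact permutation test of 3 against 3 gave p = 0.1, again the smallest it allows. Foxo1 lost its call when HKO replicate 3 was left out (limma adjusted p = 0.0694), with replicate 3 of both genotypes left out (0.209), with a pseudocount of 0.1 (0.0543) and with close pairs averaged (0.447). In IKO against WT, Foxo1 measured 1.11 ± 0.46 FPKM in IKO and 6.64 ± 1.48 FPKM in WT (log2 −2.09). Foxo1 lies on chromosome 3 (52268337 to 52350109 in RefSeq's GRCm38.p6, the assembly on which mm10 is based).

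Hnf4a, on chromosome 2 (163506811 to 163572907), is deleted in both groups. It measured 4.19, 3.52, 4.41, 3.96 and 3.84 FPKM in DKO replicates 1 to 5, against 4.28, 4.08, 3.64, 3.40 and 3.72 FPKM in HKO replicates 1 to 5. The groups overlapped (log2 0.08, 95% interval −0.26 to 0.42). IKO libraries averaged 5.39 ± 1.02 FPKM and WT libraries 5.56 ± 0.86 FPKM. A value for the whole gene includes reads from exons outside the floxed part, so it does not measure how complete the deletion was.

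The other FoxO genes did not pass. Foxo3, a relative that binds the same core motif as Foxo1, measured 8.99, 8.45, 10.7, 7.04 and 7.99 FPKM in DKO, against 7.63, 8.01, 8.82, 5.51 and 4.70 FPKM in HKO. The fitted difference was 0.31 log2 units (95% interval −0.11 to 0.73), positive in all 3 sets, with overlapping groups. Foxo6 averaged 9.82 ± 0.82 FPKM in DKO and 8.64 ± 0.448 FPKM in HKO (log2 0.20, −0.17 to 0.58), and Foxo4 4.73 ± 0.797 and 4.93 ± 0.369 FPKM (log2 −0.04, −0.35 to 0.27).

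**Figure D1:**
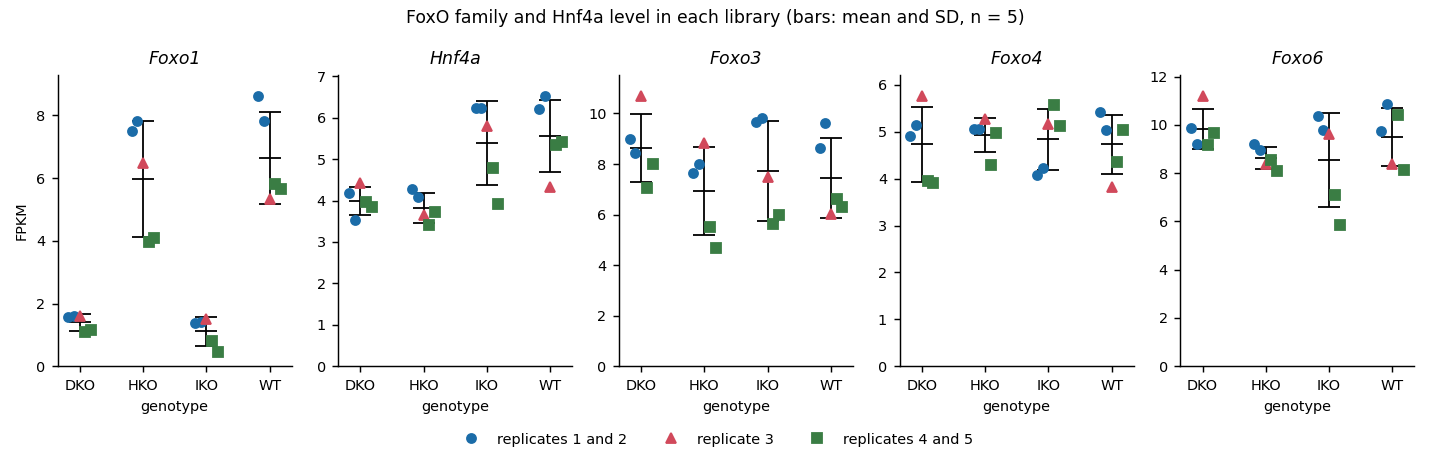
FPKM of Foxo1, Hnf4a, Foxo3, Foxo4 and Foxo6 in each of the 20 libraries, by genotype (DKO, HKO, IKO, WT), with the library set as the symbol and bars for the mean and SD of 5 libraries. Foxo1 was between 1.09 and 1.61 FPKM in DKO and between 3.95 and 7.83 FPKM in HKO, while the other FoxO genes overlapped between the 2 groups.

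Across the transcriptome 1 of 12455 genes passed in DKO against HKO at limma's adjusted p below 0.05 (0.00803%), and 130 had an unadjusted p below 0.05 (1.04%). That share is under the 0.05 which p-values would give with no differences at all, so those of this fit may be too large. The number was 317 with library set as a term and 1056 with a replicate block, each with Foxo1 alone passing. Few calls therefore do not show that differences were absent. In IKO against WT 1 gene passed as well, again Foxo1 (0.00803%), with 134 at an unadjusted p below 0.05. The 95% interval of DKO minus HKO lay within 1 log2 unit of 0 for 11997 genes, 96.3% of those tested, and the bounds lay a median of 0.29 log2 units from the fitted value. All 5 DKO libraries lay above all 5 HKO libraries for 76 genes (0.61%) and below them for 47 genes (0.377%). DKO minus HKO was above 0 for 6333 genes. That number was 7949 without replicate 3 of both genotypes (median 0.04) and 4281 without the 3 libraries highest in acinar markers (median −0.04).

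The 3 library sets did not give one pattern. Over 12454 genes without Foxo1, the correlation of DKO minus HKO was −0.17 between replicates 1 and 2 and replicate 3, 0.013 between replicates 1 and 2 and replicates 4 and 5, and −0.18 between replicate 3 and replicates 4 and 5. Genes are not independent replicates, so these values are a description. In replicates 1 and 2, 57 genes were at least 1 log2 unit higher in DKO and 7 at least 1 lower. The counts were 158 and 79 in replicate 3, which sets 1 library against 1, and 14 and 75 in replicates 4 and 5. Foxo1 was the only gene at least 1 log2 unit lower in all 3 sets, and 0 genes were at least 1 log2 unit higher in all 3. In all, 1307 genes were higher in each set and 987 lower in each set.

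**Figure D2:**
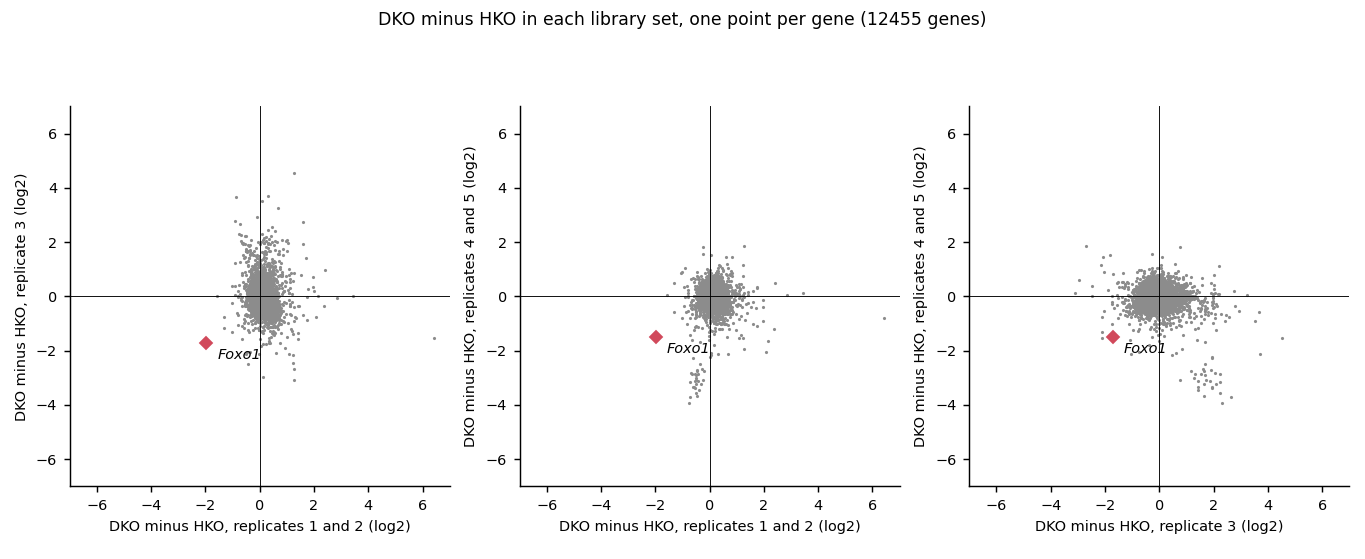
DKO minus HKO on the log2(FPKM + 0.5) scale in one library set (x axis) against another (y axis), one grey point for each of 12455 genes and a red diamond for Foxo1. Foxo1 is low in all 3 panels (−1.97, −1.72 and −1.49), and the tail of points far below 0 for replicates 4 and 5 includes the acinar genes, which are above 0 for replicate 3.

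The genes with the largest moderated t after Foxo1, limited to those at 1 FPKM or more in DKO or HKO and of one direction in the 3 sets, are given as values; none of them passed. The 12 on the higher side differed by 0.19 to 1.48 log2 units and the 11 on the lower side by −1.10 to −0.18. All DKO libraries lay above all HKO libraries for 8 of the 12, and below them for 4 of the 11, in a group chosen by this same contrast. Cldn11, a claudin of tight junctions, measured 6.70, 6.01, 4.997, 5.74 and 5.52 FPKM in DKO, against 2.93, 3.10, 0.852, 4.22 and 4.03 FPKM in HKO. The groups did not overlap, and the difference was 1.10 log2 units (95% interval 0.51 to 1.69, limma adjusted p = 0.9999). In IKO against WT it was 0.64. Cgn, the tight junction adaptor cingulin, measured 19.8, 17.8, 22.004, 20.4 and 20.2 FPKM in DKO, against 14.0, 14.4, 14.4, 17.1 and 18.0 FPKM in HKO (log2 0.39, 0.13 to 0.65). Its lowest DKO value lay just under its highest HKO value. Vangl1, a protein of planar cell polarity, averaged 2.19 ± 0.34 FPKM in DKO and 1.25 ± 0.213 FPKM in HKO (log2 0.66, 0.26 to 1.06).

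Fgg, the gamma chain of fibrinogen, a clotting protein made mainly by the liver, measured 4.42, 5.74, 5.22, 3.04 and 3.63 FPKM in DKO, against 1.48, 1.19, 0.349, 2.75 and 2.88 FPKM in HKO. No libraries overlapped, but the set differences were 1.60, 2.75 and 0.21 log2 units, so the gap was small in replicates 4 and 5. Serpina3n, a serine protease inhibitor induced in inflammation, measured 50.8, 50.3, 77.9, 70.3 and 69.9 FPKM in DKO, against 31.5, 30.9, 26.2, 53.3 and 51.3 FPKM in HKO (log2 0.87, 0.30 to 1.43). Its groups overlapped, while DKO was higher within each library set. Its relative Serpina3h averaged 1.92 ± 0.635 FPKM in DKO and 0.717 ± 0.409 FPKM in HKO (log2 1.21, 0.48 to 1.94). These genes belong to a cluster of similar copies between which reads can be misassigned. Stat3, the transcription factor that relays interleukin 6 signals, measured 130, 129, 140, 132 and 133 FPKM in DKO, against 120, 119, 117, 116 and 116 FPKM in HKO. Every DKO library was higher, by 0.19 log2 units in the fit (0.06 to 0.32).

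Enzyme genes on the same side were Car15, a carbonic anhydrase (205 ± 36.7 FPKM in DKO and 148 ± 25.8 FPKM in HKO, log2 0.52), and Mat1a, a methionine adenosyltransferase (28.3 ± 1.57 and 24.0 ± 2.60 FPKM, log2 0.26). The kinase gene Stk32b averaged 1.92 ± 0.458 FPKM in DKO and 1.05 ± 0.139 FPKM in HKO (log2 0.63). Vat1l had 32.3 ± 1.34 FPKM in DKO and 25.1 ± 1.995 FPKM in HKO (log2 0.36), and Susd6 27.2 ± 1.64 and 22.8 ± 1.62 FPKM (log2 0.26), both without overlap.

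On the lower side, Copz2, a subunit of the coatomer coat of Golgi vesicles on chromosome 11 (96849876 to 96861203), measured 29.9, 29.7, 30.6, 31.9 and 32.8 FPKM in DKO, against 35.5, 37.3, 39.1, 37.1 and 36.3 FPKM in HKO. No libraries overlapped, and the difference was −0.27 log2 units (−0.42 to −0.11). Srp9, of the signal recognition particle, averaged 20.3 ± 3.05 FPKM in DKO and 26.4 ± 2.10 FPKM in HKO (log2 −0.45), with the lowest value, 14.995 FPKM, in DKO replicate 3. Actl6a, a subunit of SWI/SNF chromatin remodellers, averaged 18.0 ± 0.43 FPKM in DKO and 21.0 ± 1.96 FPKM in HKO (log2 −0.25). Nr1h3, the oxysterol receptor LXR alpha, measured 4.72, 4.47, 3.65, 4.05 and 3.67 FPKM in DKO, against 4.68, 5.33, 5.44, 5.99 and 5.11 FPKM in HKO (log2 −0.36, −0.66 to −0.06). Its groups touched at 1 library. Tmem179 had the largest fitted difference on this side, −1.10 log2 units (−1.96 to −0.24), but its HKO values ran from 2.48 to 15.9 FPKM and overlapped the DKO values of 1.57 to 4.85 FPKM. The complement inhibitor Cd59a (log2 −0.37), the nonclassical MHC gene H2-T22 (−0.37), the ribosomal protein relative Rps27l (−0.25), Serf2 (−0.18), Cgref1 (−0.34) and Mtus2 (−0.40) complete this side.

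**Figure D3:**
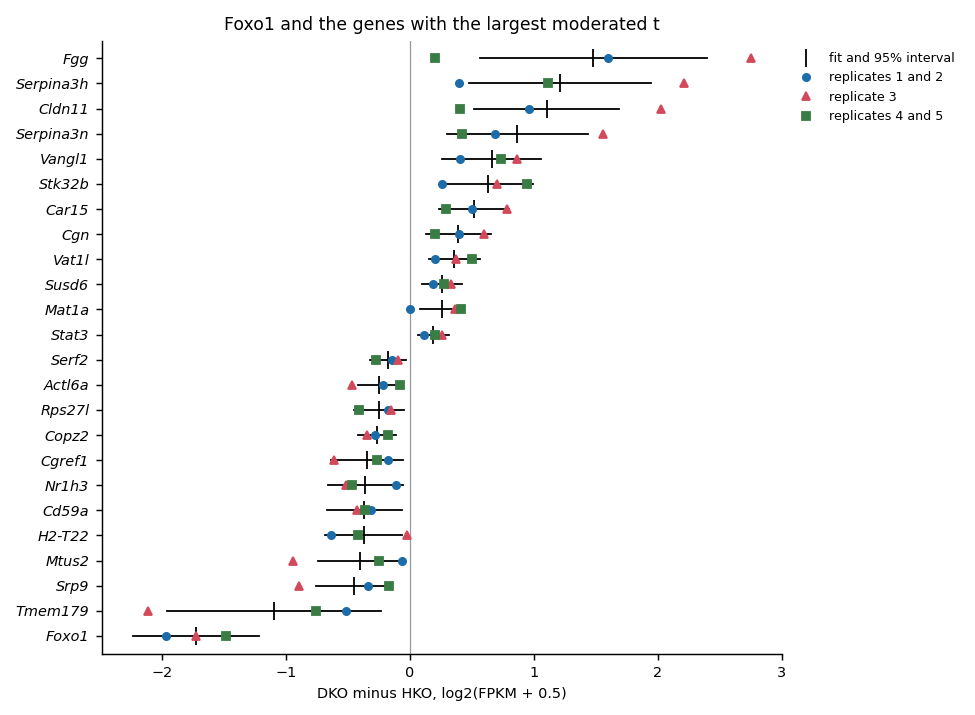
DKO minus HKO on the log2(FPKM + 0.5) scale for Foxo1 and the 12 and 11 genes with the largest moderated t on each side. The black tick and line are the fit and its 95% interval, and the symbols are the 3 library sets. Foxo1 is the only one that passed, and for Fgg, Cldn11, Serpina3h and Tmem179 replicate 3 lies farthest from 0.

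Known FoxO targets of stress defence, autophagy and cell cycle arrest had 0 of 28 tested members passing, and 0 with an unadjusted p below 0.05. The list held 30 genes, of which Trim63 and Pdk4 were under 0.5 FPKM. The median difference was 0.03 log2 units, against 0.002 over all genes tested, with a range of −0.24 to 0.47. Of the 28 members 18 were above 0, against 6333 of all 12455 genes tested. Txnip, which encodes an inhibitor of thioredoxin, averaged 24.6 ± 3.001 FPKM in DKO and 23.3 ± 2.80 FPKM in HKO (log2 0.06, 95% interval −0.41 to 0.53). Sod2, mitochondrial superoxide dismutase, averaged 46.8 ± 6.50 FPKM in DKO and 40.3 ± 9.81 FPKM in HKO (log2 0.26), and Sesn3, a sestrin that restrains mTORC1, 18.0 ± 5.49 and 14.7 ± 5.71 FPKM (log2 0.31). Both had the same sign in the 3 sets, as did Bcl6, a transcriptional repressor (log2 0.24), and Tnfsf10, the death ligand TRAIL (0.28). The members with the same sign in the 3 sets numbered 7 of 28, all of them on the higher side. Over all 12455 genes tested that number was 2294, with 1307 on the higher side.

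The FoxO core motif was looked up on both strands in RefSeq's promoter windows (GRCm38.p6, 250 bases before to 50 after a gene's start) as GTAAACA. It was in 3.65% of all 32851 windows, for 5 of the 27 FoxO targets with a window (18.5%) and for 288 of 9427 tested genes with one (3.06%). None of the 21 genes with a window among Foxo1 and the 23 genes of largest t held it. The insulin response element CAAAACAA was in 2.51% of all windows, for 1 of the 27 FoxO targets (3.7%), and among the 21 genes in that of Vat1l. Parts of the windows are shown for 3 of the 5 FoxO targets with the core motif, all 3 at measurable level, and for Vat1l. They carry these letters, in capitals, or their reverse complement, on the plus strand. Not shown are Trim63, under 0.5 FPKM, and Sesn1, which was tested but whose match begins at base 23 after the start. A match is a description of the sequence and not a site of binding.
Bcl2l11, chr2:128125788-128125849: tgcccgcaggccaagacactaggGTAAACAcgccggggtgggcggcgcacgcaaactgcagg
Txnip, chr3:96557804-96557874: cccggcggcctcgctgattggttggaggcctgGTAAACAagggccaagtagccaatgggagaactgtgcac
Bbc3, chr7:16310062-16310132: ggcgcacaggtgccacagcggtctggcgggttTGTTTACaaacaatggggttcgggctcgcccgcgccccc
Vat1l, chr8:114205463-114205534: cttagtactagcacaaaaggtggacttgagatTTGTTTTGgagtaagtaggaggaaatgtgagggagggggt

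Of these genes, Bcl2l11, the apoptosis activator Bim, averaged 2.16 ± 0.217 FPKM in DKO and 1.99 ± 0.201 FPKM in HKO (log2 0.10, −0.17 to 0.37). Bbc3, the apoptosis activator Puma, averaged 8.07 ± 1.42 FPKM in DKO and 8.49 ± 1.55 FPKM in HKO (log2 −0.16, −0.65 to 0.32). For both, as for Txnip, the interval of the difference included 0.

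The signalling genes upstream of FoxO, from the insulin receptor to Akt and mTOR, had a median of 0.05 log2 units over 19 tested genes, 12 of them above 0, and 0 passed. Without the 3 libraries highest in acinar markers the median was −0.08 with 6 of 19 above 0, and that of all genes −0.04. Irs2, the main insulin receptor substrate of beta cells, averaged 14.0 ± 0.963 FPKM in DKO and 14.1 ± 0.933 FPKM in HKO (log2 −0.04, −0.27 to 0.20). Akt2 averaged 48.5 ± 2.16 and 46.3 ± 1.04 FPKM (log2 0.08), and Eif4ebp1, a translation repressor downstream of mTORC1, 102 ± 15.4 and 118 ± 27.9 FPKM (log2 −0.18). Of the FoxO targets known from liver, 4 of 12 reached 0.5 FPKM. Of these 4, Pck2, mitochondrial phosphoenolpyruvate carboxykinase, averaged 116 ± 8.22 FPKM in DKO and 130 ± 17.9 FPKM in HKO (log2 −0.21, −0.47 to 0.04).

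Beta cell identity genes did not pass in DKO against HKO. The 20 tested transcription factors had a median of 0.06 log2 units with 16 above 0. Without the 3 libraries highest in acinar markers the median was −0.04 with 6 of 20 above 0, against −0.04 for all genes. Pdx1, the master factor of the pancreas, measured 86.6, 80.2, 102, 83.4 and 84.7 FPKM in DKO, against 99.6, 103, 92.4, 65.0 and 67.8 FPKM in HKO. It was lower in DKO in replicates 1 and 2 (−0.28) and higher in replicate 3 (0.14) and in replicates 4 and 5 (0.34). Mafa, an activator of insulin transcription in mature beta cells, went the same way by set, with −0.38, 0.31 and 0.50 log2 units and means of 170 ± 7.94 FPKM in DKO and 163 ± 52.0 FPKM in HKO. Nkx6-1 averaged 120 ± 4.06 FPKM in DKO and 117 ± 22.1 FPKM in HKO (log2 0.03), and Neurod1 58.3 ± 6.35 and 54.7 ± 4.17 FPKM (log2 0.09). Glis3, a factor of insulin gene transcription, had the same sign in the 3 sets (0.13, 0.04 and 0.72).

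Insulin and secretion genes did not pass either. Ins1 averaged 49274 ± 2264 FPKM in DKO and 53698 ± 7105 FPKM in HKO (log2 −0.06, −0.49 to 0.37), with Ins2, its close copy, at −0.02. The 19 insulin production and granule genes had a median of 0.01. The 19 genes of glucose sensing and secretion had a median of 0.07 with 15 above 0, and −0.04 with 9 above 0 without the 3 libraries highest in acinar markers. The median of all genes in that setting was −0.04. Slc2a2, the glucose transporter Glut2, measured 57.4, 56.1, 47.1, 30.6 and 28.7 FPKM in DKO, against 61.2, 62.3, 55.6, 20.01 and 20.4 FPKM in HKO. Replicates 4 and 5 were low in both genotypes, and the difference was 0.07 (−0.77 to 0.91). Ucn3, a hormone of mature beta cells, averaged 165 ± 22.7 FPKM in DKO and 163 ± 49.6 FPKM in HKO (log2 0.09).

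Among dedifferentiation and progenitor genes 0 of 10 tested passed, with a median of 0.09 log2 units and 8 above 0. Aldh1a3, an aldehyde dehydrogenase known to mark failing beta cells, measured 13.0, 13.2, 14.5, 23.2 and 22.9 FPKM in DKO, against 9.26, 9.23, 13.7, 11.1 and 12.5 FPKM in HKO. DKO was higher within each set, by 0.48, 0.08 and 0.94 log2 units, and 0.51 in the fit (0.08 to 0.95, limma adjusted p = 0.9999), while the groups overlapped. In IKO against WT the fitted difference of Aldh1a3 was 0.52. Sox4 averaged 3.70 ± 0.429 FPKM in DKO and 3.13 ± 0.284 FPKM in HKO (log2 0.22). Of the genes normally kept low in beta cells, 5 of 20 reached 0.5 FPKM. Oat, ornithine aminotransferase, measured 2.62, 2.55, 2.32, 2.98 and 2.85 FPKM in DKO, against 2.09, 1.74, 1.80, 1.86 and 1.89 FPKM in HKO. Its groups did not overlap (log2 0.39, 0.04 to 0.75), and it did not pass.

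Of the 21 cholesterol synthesis and uptake genes, 12 had one sign in all 3 library sets, against 2294 of all 12455 genes tested. All 21 were tested and 0 passed, while 19 differed upwards, with a median of 0.21 log2 units against 0.002 over all genes. The number at an unadjusted p below 0.05 was 3 in limma (1.04% of all genes), 11 with library set as a term (317 of all genes), 10 with the acinar level as a covariate (212), and 0 without DKO replicate 3 (83) or without the 3 libraries highest in acinar markers (142). The set medians were 0.05, 0.30 and 0.28, against 0.06, −0.08 and 0.02 over all genes. In replicates 1 and 2 the list was thus at the level of all genes. Of its members, 11 were higher in DKO in each set, against 1307 of all 12455 genes. Hmgcs1, which makes the precursor of mevalonate, measured 16.0, 16.5, 20.3, 16.0 and 16.9 FPKM in DKO, against 15.7, 14.2, 13.4, 13.3 and 12.1 FPKM in HKO. No libraries overlapped for Hmgcs1 (log2 0.34, 0.02 to 0.67), nor for Dhcr7, which completes cholesterol (9.43 ± 0.605 FPKM in DKO and 8.01 ± 0.526 FPKM in HKO). Srebf2, the activator of these genes, averaged 31.7 ± 3.98 FPKM in DKO and 27.6 ± 3.81 FPKM in HKO (log2 0.24).

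Insig1, which holds the SREBP activator back when sterols are plentiful, had a difference of 0.35 log2 units and Stard4, a sterol carrier, 0.43, while the squalene epoxidase gene Sqle was at −0.05. The cholesterol median was 0.16 with 17 of 21 above 0 without replicate 3 of both genotypes, and 0.08 with 18 above 0 without the 3 libraries highest in acinar markers. Over all genes the medians in these settings were 0.04 and −0.04, with 7949 and 4281 of 12455 above 0. In IKO against WT, which shares no library with DKO against HKO, the list's median was −0.13 with 5 of 21 above 0. Over all genes it was 0.02 with 7558 of 12455 above 0. The median of the difference between both comparisons was 0.36, against −0.01 over all genes, and no member passed that interaction test. In HKO against WT the list's median was −0.14, against 0.03 over all genes. The list's mean log2 level was 4.12 ± 0.095 in DKO and 4.12 ± 0.094 in WT (SD over libraries). It was 3.96 ± 0.095 in HKO and 3.99 ± 0.13 in IKO. By this mean DKO lay at the WT level and HKO below it, though HKO and WT libraries overlapped.

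**Figure D4:**
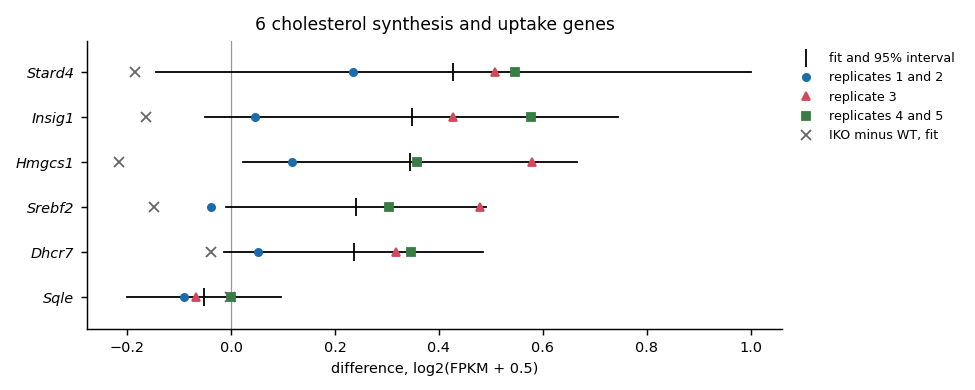
Difference on the log2(FPKM + 0.5) scale for 6 of the 21 cholesterol synthesis and uptake genes, those described in the text. The black tick and line are the DKO minus HKO fit with its 95% interval, symbols are DKO minus HKO in the 3 library sets, and the grey cross is IKO minus WT. The ticks run from 0.43 for Stard4 to −0.05 for Sqle, the one gene of the 6 below 0.

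Other lipid genes had medians of 0.09 log2 units for fatty acid and triglyceride synthesis (19 tested) and 0.003 for fatty acid oxidation (17 tested). Without the 3 libraries highest in acinar markers these medians were −0.05, with 6 of 19 above 0, and −0.12, with 3 of 17 above 0. Over all genes the median was then −0.04, with 4281 of 12455 above 0. Scd1, a desaturase that makes monounsaturated fatty acids, measured 2.93, 3.31, 4.12, 3.17 and 3.33 FPKM in DKO, against 2.21, 2.32, 2.32, 2.14 and 2.51 FPKM in HKO. The groups did not overlap (log2 0.50, 0.03 to 0.96), and Scd1 did not pass. Fasn, the fatty acid synthase gene, averaged 16.5 ± 1.29 FPKM in DKO and 14.6 ± 2.60 FPKM in HKO (log2 0.17). Slc25a20, the mitochondrial carrier of acylcarnitines, averaged 10.8 ± 0.366 and 12.0 ± 0.763 FPKM (log2 −0.14).

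Energy metabolism genes did not pass. Glycolysis and low-oxygen genes had a median of −0.09 log2 units in DKO against HKO with 5 of 21 above 0, and 0.35 in IKO against WT with 20 of 21 above 0. The set medians were 0.03, 0.14 and −0.25 in DKO against HKO, and 1.01, −0.17 and 0.36 in IKO against WT. Without the 3 libraries highest in acinar markers the DKO against HKO median was 0.08 with 13 of 21 above 0. Nuclear genes of oxidative phosphorylation had a median of −0.04 with 9 of 29 above 0. Cyc1, cytochrome c1, averaged 113 ± 10.1 FPKM in DKO and 121 ± 5.604 FPKM in HKO (log2 −0.12). The 7 tested genes of the mitochondrial genome had a median of −0.09, with set medians of 0.46, 0.16 and −0.99, and 4 of 7 were above 0 without the 3 libraries highest in acinar markers. The genes of ER folding had a median of −0.04 (21 tested; 0.02 without replicate 3 of both genotypes) and cell cycle genes 0.07 (14 tested).

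Interferon response and MHC class I genes differed upwards in 20 of 21 cases, with 0 passing and a median of 0.23 log2 units, and replicate 3 stood apart. The set medians were −0.06, 0.90 and −0.09. Without replicate 3 of both genotypes 9 of 21 were above 0, with a median of −0.04, against 0.04 over all genes. The whole immune marker list had 7 of 8 tested members above 0 and set medians of 0.32, 1.75 and −0.57, and its summed level was 43.5 to 60.4 FPKM in DKO and 26.9 to 46.9 FPKM in HKO. Its lowest sum was in HKO replicate 3 and its highest in DKO replicate 3, and the defining marker Ptprc was at 0.0412 to 0.341 FPKM in DKO and 0.0280 to 0.0734 FPKM in HKO. Endothelial markers had set medians of 0.15, 1.64 and −0.11 over 4 tested of 10, with sums of 6.79 to 18.5 FPKM in DKO and 5.89 to 7.75 FPKM in HKO. The part of these cells in the interferon values was not tested.

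Acinar markers were lower in DKO in the fit for all 17 tested members, with a median of −0.72 log2 units, and 0 passed. The set medians were −0.50, 1.66 and −3.13, so the sign turned in replicate 3. Ctrb1, chymotrypsinogen, measured 87.8, 80.7, 476, 52.8 and 55.8 FPKM in DKO, against 135, 140, 99.5, 476 and 487 FPKM in HKO. DKO replicate 3 lay within the HKO range, and the other 4 DKO libraries lay below it. Prss1 and Amy2a5 were listed at 0 in all 10 libraries. Among immediate early and stress genes (17 tested, median 0.07), Nr4a1, an orphan nuclear receptor, averaged 11.1 ± 2.12 FPKM in DKO and 14.2 ± 2.78 FPKM in HKO (log2 −0.43, −0.80 to −0.06).

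**Figure D5:**
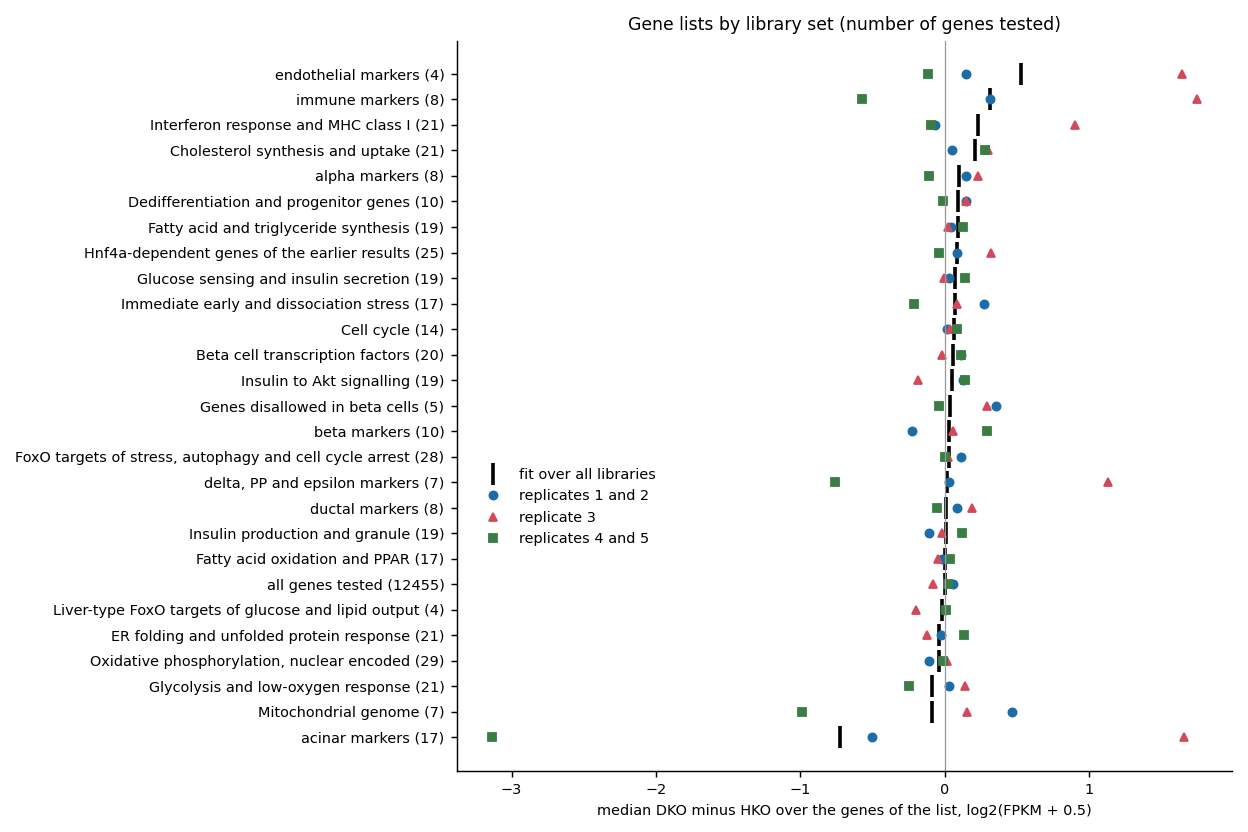
Median DKO minus HKO on the log2(FPKM + 0.5) scale over the tested genes of each list (number in brackets), as the fit over all libraries (black tick) and in the 3 library sets (symbols). Acinar markers run from −3.13 in replicates 4 and 5 to 1.66 in replicate 3, interferon genes reach 0.90 in replicate 3 alone, and FoxO targets stay between −0.00030 and 0.11.

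For 25 genes that earlier results of these data had tied to Hnf4a loss, DKO minus HKO was between −0.24 and 1.10 log2 units. In DKO against HKO 0 of 25 passed, with a median of 0.08 log2 units and 16 above 0, and −0.01 with 11 above 0 without replicate 3 of both genotypes. The median of all genes without those replicates was 0.04. In the same fit 7 were higher and 9 lower in DKO than in WT, and 3 were higher and 10 lower in HKO than in WT. In 12 of these the call and direction were shared. Both comparisons share the WT libraries, and HKO enters both the choice of these genes and DKO against HKO. Over all genes 0.337% passed in DKO against WT and 0.209% in HKO against WT. Anks4b, a scaffold of microvilli, averaged 3.56 ± 0.599 FPKM in DKO, 3.93 ± 0.669 in HKO and 13.8 ± 1.75 in WT, with DKO minus HKO at −0.06 (−0.45 to 0.33). Dio1, a thyroid hormone deiodinase, averaged 7.70 ± 1.10 FPKM in DKO, 7.66 ± 1.52 in HKO and 20.6 ± 3.39 in WT (DKO minus HKO 0.05, −0.38 to 0.48). Npy, the neuropeptide Y gene, averaged 31.8 ± 5.53 FPKM in DKO, 33.6 ± 13.0 in HKO and 11.2 ± 3.75 in WT (DKO minus HKO 0.04, −0.54 to 0.62).

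Sparcl1, a secreted matrix protein, went farther from WT in DKO by its mean. It measured 7.63, 7.98, 5.37, 7.95 and 7.64 FPKM in DKO, against 5.29, 4.51, 3.42, 3.16 and 3.07 FPKM in HKO, and 0.513 ± 0.249 FPKM in WT. Every DKO library lay above every HKO library, with 0.81 log2 units in the fit (0.20 to 1.42), and it did not pass. Elovl2, a fatty acid elongase, averaged 1.79 ± 0.377 FPKM in DKO, 2.25 ± 0.263 in HKO and 5.13 ± 1.01 in WT (DKO minus HKO −0.24, −0.57 to 0.10). Krt19, a keratin of duct cells, measured 4.18, 3.68, 12.6, 4.84 and 5.32 FPKM in DKO, against 3.27, 3.30, 2.68, 4.62 and 4.53 FPKM in HKO, with DKO replicate 3 far above the rest. Hpgds, a prostaglandin D synthase, averaged 3.32 ± 0.361 FPKM in DKO, 4.04 ± 2.59 in HKO and 10.9 ± 2.13 in WT.

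Whether loss of Foxo1 acted differently with and without Hnf4a was tested by the interaction, DKO minus HKO less IKO minus WT, 2 comparisons that share no library. Of 12455 genes 0 passed in limma (0.0%), with 170 at an unadjusted p below 0.05, and the fit with close pairs taken as independent gave 1, Copz2. Copz2 was −0.27 log2 units in DKO against HKO and 0.23 in IKO against WT (interaction −0.50, limma adjusted p = 0.673). Its level was 36.4, 35.2, 37.7, 41.2 and 42.2 FPKM in IKO, against 31.7, 34.1, 31.7, 32.5 and 33.6 FPKM in WT, again without overlap. Myo7a, an unconventional myosin chosen here after its values were seen, had the smallest p. It averaged 0.648 ± 0.310 FPKM in DKO and 0.937 ± 0.625 FPKM in HKO (log2 −0.49), against 1.31 ± 0.372 FPKM in IKO and 0.154 ± 0.174 FPKM in WT (log2 1.41). Across 12454 genes without Foxo1, DKO minus HKO and IKO minus WT had a correlation of −0.14 in the fit and of −0.040, −0.22 and −0.099 in the 3 sets.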

How the data were processed

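The authors deposited 1 table of FPKM values for 20 libraries, and all of its value columns matched a sample. The build mm10 and the tools DESeq2 1.14.1, featureCounts, Subread 1.5.2 and STAR 2.5.2b are named, without roles, in the notes on processing by the submitters. Poly-A directional libraries were sequenced as paired-end reads, per the labels' protocols. No annotation is named and no strand setting for the counting is given, so reads of overlapping genes or near-identical copies can be misassigned. Of 27179 entries, 847 named NA and 27 named by a date were left out of the tests (0.0810 to 0.204% and 0.160 to 0.186% of reads per library). Whole reads (within 0.02 reads) were recovered from FPKM for 100% of the 21006 entries above 0 and served for depth, 22.6 to 34.7 M reads, and for comparing replicates. Precision is limited by the spread of libraries, not by these depths alone.

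Groups came from the sample titles. Values of genes averaging 0.5 FPKM or more entered limma 3.58.1 (R 4.3.3; lmFit, contrasts.fit, eBayes with trend) as log2(FPKM + 0.5), over all 20 libraries. This scale understates the change of low genes. Libraries of 1 genotype and set were treated as correlated (duplicateCorrelation, consensus 0.81), and a gene was called when its p, adjusted by Benjamini and Hochberg, was below 0.05. The main fit of DKO against HKO was first run on simulated counts with 1 spread for all genes, which does not measure its power here. Alternatives were the treatment of close pairs, the replicate block, a term for library set, DKO and HKO alone, the pseudocount (0.1 or 1), the filter, 2 scalings, the acinar level, voom on recovered reads, and leaving out libraries. Leaving out replicate 3 of both genotypes was added after the data were seen.

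The genes and lists were chosen with earlier results of these data known. Named genes were Foxo1, Hnf4a and the other FoxO genes; called genes; with few calls, up to 12 per direction by moderated t; up to 4 per list by size of the difference, of 1 sign in the 3 sets; core beta cell genes; and the Hnf4a-dependent list. List members outside this rule were named for their role in the pathway, after values were seen. Some genes that this rule names are not reported here.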

Additional observations from a re-analysis of the deposited data

Results flagged for a closer look

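Libraries that stood far from the other 4 of their genotype were looked for among 61 genes in DKO and in HKO, 122 groups in all, by Dixon's criterion (a gap above 0.71 of the group's range). It marked 12 groups, with DKO replicate 3 in 8 of them and HKO replicate 3 in 2. Chance marks about 1 in 20 groups of independent libraries, a rate that does not hold here. Replicates 1 and 2, and 4 and 5, are close to each other, so that a library with a close partner can rarely show such a gap and replicate 3 is marked most easily. No explanation was tested.

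DKO replicate 3 was the highest DKO library for Hmgcs1 and Insig1 of the cholesterol list. Hmgcs1 was at 20.3 FPKM there, against 16.0 to 16.9 FPKM in the other 4, and Insig1 at 30.9 FPKM, against 24.7 to 26.0 FPKM. The same library was highest for Krt19, with 12.6 FPKM against 3.68 to 5.32 FPKM. It was also highest for Sox4 (4.46 FPKM), Akt2 (52.3 FPKM) and Tnfsf10 (3.69 FPKM), where the other DKO libraries reached at most 3.62, 48.2 and 2.15 FPKM in that order. It was lowest for Sparcl1, with 5.37 FPKM against 7.63 to 7.98 FPKM, and for Srp9, with 15 FPKM against 20.5 to 22.6 FPKM.

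HKO replicate 3 was lowest for Vangl1, with 0.873 FPKM against 1.27 to 1.39 FPKM in the other HKO libraries, and for Ins1, with 41150 FPKM against 55570 to 58370 FPKM. Bcl6 was highest in HKO replicate 5 (4.504 FPKM, others at most 3.54 FPKM), and Foxo4 lowest in HKO replicate 4 (4.301 FPKM, others at least 4.98 FPKM).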

How the results depend on the processing

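Foxo1 was lower in DKO under every alternative tried. Its call, and with it the count of called genes in DKO against HKO, went to 0 in limma with close pairs averaged (Foxo1 −1.73, adjusted p = 0.447; 145 genes at an unadjusted p below 0.05), with a pseudocount of 0.1 (−1.97, adjusted p = 0.0543; 123 genes), without replicate 3 of both genotypes (−1.73, adjusted p = 0.209; 155 genes) and without HKO replicate 3 (adjusted p = 0.0694; 348 genes). Leaving out 1 library at a time gave 0 to 1 called genes and −1.79 to −1.66 for Foxo1. The cause was not tested.

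Pairing by replicate number was taken as given only if every same-numbered DKO and HKO pair deviated from its group means with a correlation above 0.1. The correlations were 0.201, 0.108, −0.0545, 0.37 and 0.297, so replicate 3 fell short, and DKO replicate 1 was closest to HKO replicate 3 (0.422). Libraries of both genotypes did deviate together within replicates 1 and 2 (0.108 to 0.207) and within replicates 4 and 5 (0.297 to 0.37). The fit with the replicate block called 1 gene in DKO against HKO, Foxo1 (−1.73, adjusted p = 2.89e-06; 1056 genes at an unadjusted p below 0.05, against 130 without the block), and 1 in the interaction, Copz2, as did the fit with close pairs independent.

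Leaving out the 3 libraries highest in acinar markers takes replicate 3 from DKO and replicates 4 and 5 from HKO. Genotype and library set are then partly mixed. In this setting, genes that did not pass turned sign: Foxo3 (−0.032), Hnf4a (−0.015), Ins1 (0.021), Ins2 (0.13), Mafa (−0.056), Neurod1 (−0.0329), Nkx6-1 (−0.15), Pdx1 (−0.21), Slc2a2 (−0.51) and Ucn3 (−0.20). So did Ins2 with quantile normalization (0.0000) and Pdx1 without DKO replicate 3, over a range of −0.024 to 0.12. Of 494 recomputed list medians, 487 lay within 1 SD of libraries of the value reported and 7 did not. These include settings that left out 1 WT or IKO library, which can hardly move DKO minus HKO. The count is thus no measure of how stable the medians are. With 3 library sets, small differences were not detectable.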

Other observations

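Some of the largest differences between DKO and HKO belonged to 1 library set. These genes were picked after their values were seen, and they carry no test. Ccdc190 measured 75.9, 72.1, 21.2, 41.2 and 42.1 FPKM in DKO, against 0.242, 0.498, 61.9, 74.4 and 70.9 FPKM in HKO. It was low in HKO replicates 1 and 2 alone, while its lowest value in the other 18 libraries was 21.2 FPKM. Tff3, a trefoil peptide of mucosal epithelia, measured 4.55 and 5.39 FPKM in DKO replicates 1 and 2, against 0 in both HKO libraries of that set, and no other library of the study was above 0.571 FPKM.

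Nptx2, a secreted pentraxin of synapses, was higher in DKO in every set. It measured 33.6, 33.3, 19.4, 25.8 and 26.4 FPKM in DKO, against 5.89, 6.02, 9.504, 17.7 and 18.7 FPKM in HKO. The set differences were 2.39, 0.99 and 0.51 log2 units, and no libraries overlapped. The fitted difference was 1.31 log2 units (limma adjusted p = 0.9999). In IKO and WT its values ran from 5.88 to 41.7 FPKM and from 9.54 to 20.1 FPKM.

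In replicate 3 the immunoglobulin gene Igkc measured 17.0 FPKM in DKO and 0.256 FPKM in HKO. In replicates 4 and 5 it measured 4.25 and 4.05 FPKM in DKO, against 14.9 and 11.5 FPKM in HKO. Pttg1, securin of the cell cycle, measured 0.0235 FPKM in HKO replicate 3 and 1.21 to 5.55 FPKM in the other 19 libraries.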
